A study of Mus musculus with 6 samples.

Results

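The expression of laminins and basement membrane glycoproteins was examined in *Phf2* KO C2C12 myotubes. The genes were 10 rows of the gene count matrix, taken by symbol: the laminin chains *Lama2*, *Lama4*, *Lama5*, *Lamb1*, *Lamb2* and *Lamc1*, the nidogens *Nid1* and *Nid2*, perlecan (*Hspg2*) and agrin (*Agrn*). They are 10 of 55401 genes in the matrix, and all 10 were among the 17310 genes with enough counts to be tested. C2C12 is a mouse myoblast line whose cells fuse into myotubes when serum is lowered. RNA sequencing of poly(A) RNA covered 3 control and 3 *Phf2* KO libraries, all from C2C12 myotubes 2 d post differentiation in 2% horse serum. The control cells, labelled wild type, had received Cas9 and a guide with no match in the mouse genome, and the *Phf2* KO cells a mixture of 4 *Phf2* guides, and both were sorted for a fluorescent reporter and grown as uncloned pools. Replicates were wells of a single experiment from 1 pool per group, so p-values measure the spread between wells, and a difference between pools cannot be told apart from the loss of *Phf2*.

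The basement membrane is the sheet of matrix around each muscle fiber. Laminins are trimers of an alpha, a beta and a gamma chain that polymerize at the cell surface, where integrins and alpha-dystroglycan hold them. Nidogens link the laminin polymer to the collagen IV network, and perlecan and agrin are heparan sulfate proteoglycans that tie both to the cell. Agrin also clusters acetylcholine receptors at the neuromuscular junction, and loss of the alpha chain encoded by *Lama2* causes a congenital muscular dystrophy. PHF2 is a histone demethylase of dimethylated lysine 9 of histone H3, and the study asked what its loss does to transcription in differentiating muscle cells.

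*Phf2* itself, in CPM (counts of a gene relative to its library's TMM-scaled total), was at 102, 95.5 and 105 in the control libraries and at 41.1, 37.6 and 38.6 in the *Phf2* KO libraries. Its log2 fold change was -1.37 (SE 0.055, adjusted p = 8.32e-09). Library totals were 56821143 to 58507833 estimated counts in the control and 52526109 to 67502788 in the *Phf2* KO group. The 12 markers of differentiated myotubes were present in all libraries, with a summed level of 10960 to 12980 CPM in the control and 8697 to 9580 CPM in the *Phf2* KO group. All 12 had a negative log2 fold change (median -0.42), and 7 of them passed the test. Summed markers of undifferentiated myoblasts were at 167 to 203 and 224 to 240 CPM, much of it *Id3* (means 96.8 and 136.8 CPM, adjusted p = 0.0661). Of these 7 genes, 5 were higher and 2 lower in sign (*Hes1* -0.36, *Hey1* -0.45), and only *Id2* passed the test, higher. Summed fibroblast markers were at 10510 to 11070 and 11720 to 12600 CPM. Most of this was *Col1a1* (means 4487 and 5167 CPM) and *Col1a2* (5732 and 6377 CPM), both past the test and higher. *Dcn* (0.21, adjusted p = 0.204), *Pdgfra* (0.14, 0.408) and *Lum* (-0.21, 0.540) did not pass, and *Thy1* and *Tcf21* were at 0 in every library. Cycling cell markers summed to 298 to 315 and 278 to 310 CPM, and the groups overlapped. Endothelial markers summed to at most 0.790 CPM in any library. Schwann cell markers summed to 1.86 to 2.95 CPM, with *Sox10* at 0 in every library, and leukocyte markers to 9.91 to 12.7 and 6.78 to 8.37 CPM. Most of the leukocyte sum was *Cd14* (8.94 ± 1.33 and 5.73 ± 0.766 CPM, -0.64, adjusted p = 0.0210). *Ptprc*, of the same list, had 0 counts in every control library and 0, 0 and 6 in the *Phf2* KO libraries. In these bulk libraries, fewer cells of a type and less RNA per cell cannot be told apart.

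Of the 10 genes, *Nid2* rose and *Lama5* fell in *Phf2* KO cells at an adjusted p under 0.05, and the other 8 did not pass the test. Of all 17310 genes tested, 6.48% passed it, 557 (3.22%) higher and 565 (3.26%) lower. A correction for GC content moved this split to 715 higher and 461 lower. The median log2 fold change of the 10 genes was 0.05, against -0.00096 over all genes tested, and 6 of the 10 were higher and 4 lower in sign. The control and *Phf2* KO libraries did not overlap in CPM for 6 of the 10 genes (*Lama5*, *Lamb1*, *Lamc1*, *Nid1*, *Nid2* and *Hspg2*), which was so for 25.1% of all genes tested. The summed level of the 10 genes was 5065 to 5207 CPM in the control and 5125 to 5316 CPM in the *Phf2* KO libraries, so the sums overlapped.

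The 10 genes lie on 8 chromosomes, with only *Hspg2* and *Agrn* (both on chromosome 4) and *Lama2* and *Lama4* (both on chromosome 10) sharing one. They are long genes of many exons. The longest annotated transcripts ran from 4876 bases (*Nid2*) to 14187 bases (*Hspg2*), all above the median of 2928 bases over the genes tested, and held 20 to 97 exons against a median of 6. Their GC content was 47.7% to 60.9%, above the median of 49.3% in 9 of 10. All but *Lama4* were also expressed above the median level of the genes tested, which was 15.0 CPM.

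RefSeq (GRCm38.p6) gave 300-base promoter windows, from 250 bases before to 50 bases after a RefSeq start, for 7 of the 10 genes. These starts can differ from the GENCODE gene spans given further below. The *Lama2* window (27616893 to 27617192) and 1 *Agrn* window (156186210 to 156186509) lie wholly inside those spans. *Lama4*, *Lamc1* and *Nid2* had no entry. CANNTG, the E-box letters read by myogenic basic helix-loop-helix factors, was found in 5 of the 7. By window, it was in 62.5% of their 8 windows against 72.3% of all 32851 promoter windows. GGGCGG, the core of a GC box, was found on either strand in 6 of the 7, in 87.5% of their 8 windows against 35.7% of all windows. TATAAA was found on either strand in none of the 7, and in 13.6% of all windows. The windows of the 7 genes had a median of 19 CpG dinucleotides and 64.2% GC, against 7 and 52.7% over all windows. Given below are the 250 bases before the RefSeq start of *Lama5*, the laminin chain whose transcript fell, on the minus strand (chr2:180225860-180226109). Those of *Nid1*, the nidogen that did not pass the test, follow on the plus strand (chr13:13437352-13437601). The *Nid1* stretch runs past the GENCODE start of that gene (13437551), so its end lies within the GENCODE span. Both read 5′ to 3′, and capitals mark CANNTG and GGGCGG on either strand (CCGCCC where it lies on the other strand).
Lama5: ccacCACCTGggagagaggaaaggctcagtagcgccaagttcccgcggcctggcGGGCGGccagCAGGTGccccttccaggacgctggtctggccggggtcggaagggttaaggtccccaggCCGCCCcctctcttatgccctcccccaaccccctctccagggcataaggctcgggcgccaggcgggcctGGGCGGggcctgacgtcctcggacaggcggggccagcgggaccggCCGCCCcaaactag
Nid1: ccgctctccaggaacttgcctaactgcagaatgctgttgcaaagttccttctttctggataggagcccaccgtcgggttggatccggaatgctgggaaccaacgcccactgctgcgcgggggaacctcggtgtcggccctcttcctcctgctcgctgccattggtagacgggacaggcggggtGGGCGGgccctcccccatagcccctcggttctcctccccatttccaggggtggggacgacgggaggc
The *Lama5* stretch holds 2 CANNTG and 4 GGGCGG matches, and the *Nid1* stretch 0 and 1. A match is only a match of letters, and no binding was measured at these genes.

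Because counts grow with transcript length, levels of different genes were compared per length, as CPM per kilobase of the longest annotated transcript. In control cells *Nid2* (173 ± 7.48, SD, n = 3) and *Hspg2* (173 ± 1.96) were highest, and the ranges of their libraries overlapped. *Nid1* followed at 66.2 ± 0.480 CPM per kb, then *Lamb1* at 47.0 ± 1.37. *Lamb2* (40.7 ± 1.01) and *Lamc1* (39.6 ± 0.698) came next with overlapping ranges, so their order is not resolved. *Lama5* was at 32.0 ± 1.18, *Agrn* at 19.7 ± 3.39, *Lama2* at 10.3 ± 0.222 and *Lama4* at 0.133 ± 0.055 CPM per kb, with ranges that were separate from each neighbour. In *Phf2* KO cells the order was the same, but *Nid2* (211 ± 6.29) and *Hspg2* (166 ± 3.67) no longer overlapped. The deposited TPM gave the same order in the control, with *Lamb2* and *Lamc1* separate there. The TPM of *Lama2* stood apart, at 0.236 TPM for each CPM per kb against 1.74 to 2.62 in the other 9 genes, so its level depends on the scale, and the cause was not tested.

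**Figure D1:**
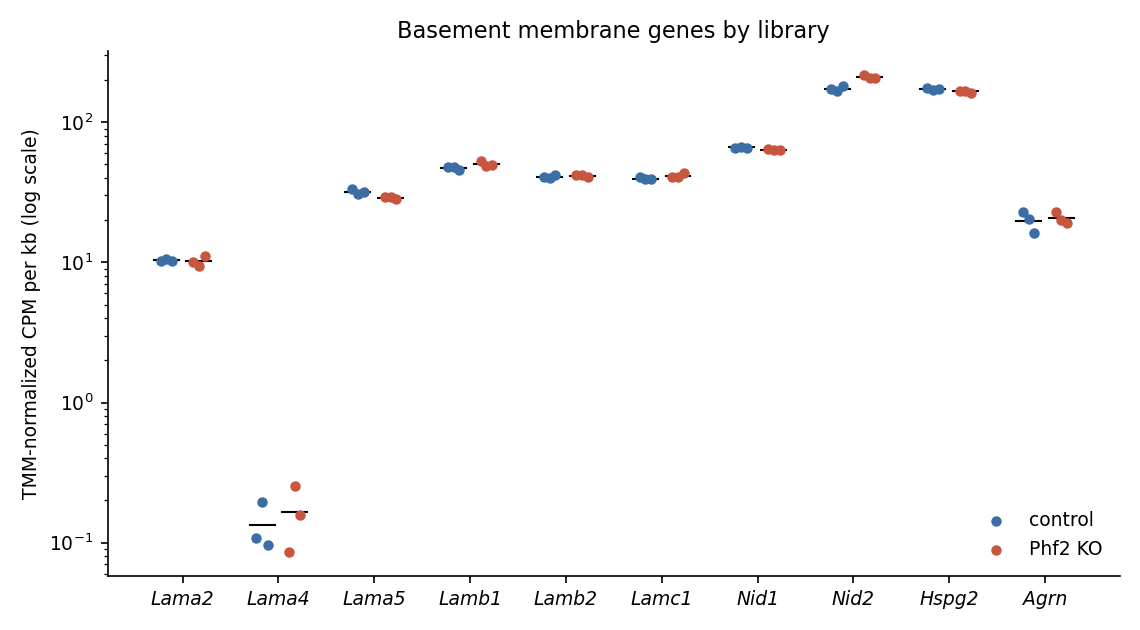
Level of each of the 10 genes in TMM-scaled CPM per kilobase of the longest annotated transcript (log axis), with 1 point per library (blue for control, red for *Phf2* KO) and a bar at the mean of 3 libraries. *Nid2* and *Hspg2* sat at the top in both groups and *Lama4* at the bottom, and the *Nid2* points of the *Phf2* KO libraries (207.5 to 218.6) lay above those of the control (165.9 to 180.9).

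Among the laminin alpha chains, *Lama5* was the main transcript and the only one that changed past the threshold. *Lama5* (ENSMUSG00000015647.9, chromosome 2, 180176373 to 180225859 of GRCm38, minus strand) encodes the alpha chain of broadly expressed laminins of fetal muscle and many epithelia and vessels. It was at 378.8, 352.0 and 363.5 CPM in the control libraries and at 330.7, 333.5 and 321.9 CPM in the *Phf2* KO libraries. The highest *Phf2* KO library was below the lowest control library, by a small margin between control 2 and *Phf2* KO 2. The means were 364.8 ± 13.5 and 328.7 ± 6.08 CPM (SD, n = 3), a fall of 9.89% (log2 fold change -0.15, SE 0.042, 95% interval -0.24 to -0.06, adjusted p = 0.0481). This call sat at the threshold: it was lost without any 1 of the 6 libraries (adjusted p 0.0822 to 0.173), with edgeR's exactTest, which the study names (adjusted p = 0.173), and with a correction for GC content (log2 fold change -0.080, adjusted p = 0.296) or transcript length (-0.14, 0.0950). The markers of differentiated myotubes were lower in the same libraries, and their part in the *Lama5* difference was not tested.

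*Lama2* (ENSMUSG00000019899.17, chromosome 10, 26980036 to 27619758, minus strand) encodes the alpha chain of the main laminin of adult muscle. It was at 98.8, 101.7 and 97.6 CPM in the control and at 97.4, 90.2 and 106.8 CPM in the *Phf2* KO libraries, with the control values inside the *Phf2* KO range. The log2 fold change was -0.02 with a 95% interval of -0.14 to 0.11 (adjusted p = 0.918), an interval that spans 0. A noncoding antisense gene, *Gm48084*, shares 631 bases (3.86%) of its exons. *Lama4* (ENSMUSG00000019846.11, chromosome 10, 38965515 to 39110188, plus strand) encodes an alpha chain of vessel, nerve and fat basement membranes. Its estimated counts were only 37, 69 and 34 in the control and 32, 80 and 65 in the *Phf2* KO libraries. At this depth its 95% interval ran from -0.62 to 1.23 on the log2 scale (adjusted p = 0.780), a wide interval that holds changes of either sign.

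The beta and gamma chains *Lamb1*, *Lamb2* and *Lamc1* did not pass the test. *Lamb1* (ENSMUSG00000002900.17, chromosome 12, 31265234 to 31329644, plus strand) encodes the beta chain of most embryonic and muscle laminins. It was at 276.1, 276.6 and 262.6 CPM in the control and 304.5, 279.8 and 285.0 CPM in the *Phf2* KO libraries, which did not overlap (log2 fold change 0.09, SE 0.045, adjusted p = 0.284). *Lamb2* (ENSMUSG00000052911.9, chromosome 9, 108479736 to 108490530, plus strand) encodes the beta chain that is concentrated at the neuromuscular synapse. It was at 228.4, 223.5 and 234.8 against 237.8, 235.0 and 229.6 CPM, and the groups overlapped (0.03, SE 0.042, adjusted p = 0.753). *Lamc1* (ENSMUSG00000026478.14, chromosome 1, 153218922 to 153332786, minus strand) encodes the gamma chain shared by most laminins. It was at 307.9, 301.1 and 297.5 against 310.4, 310.7 and 329.2 CPM, without overlap but with *Phf2* KO 1 only just above control 1 (0.07, SE 0.042, adjusted p = 0.420). The 95% intervals of the 3 chains reached at most 0.19, 0.12 and 0.16 on the log2 scale. With the GC correction their log2 fold changes were 0.14, 0.10 and 0.12 (adjusted p 0.0741, 0.185 and 0.108).

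*Nid2* had the smallest p of the 10 genes and ranked 144 by p among all genes tested. *Nid2* (ENSMUSG00000021806.4, chromosome 14, 19751265 to 19811787, plus strand) encodes nidogen-2, which binds laminin and collagen IV as nidogen-1 does. It was at 844.8, 809.1 and 882.1 CPM in the control libraries and at 1066, 1013 and 1012 CPM in the *Phf2* KO libraries. The lowest *Phf2* KO library was above the highest control library. The means were 845.3 ± 36.5 and 1030 ± 30.7 CPM (SD, n = 3), a rise of 21.9% (log2 fold change 0.29, SE 0.041, 95% interval 0.20 to 0.37, adjusted p = 0.00085). The rise passed the threshold without each of the 6 libraries (adjusted p 0.00044 to 0.0156) but not with limma on log2(TPM + 1) (0.25, adjusted p = 0.135) or log2(TPM + 0.1) (0.25, adjusted p = 0.13). The last exon stretch of *Nid2* shares 437 bases (8.45% of its exons) with *Rtraf* on the opposite strand. The library kit keeps strand, but how strand was used in counting is not given in the sources used here. *Rtraf* was at 110.9 ± 4.39 and 121.6 ± 5.39 CPM (0.13, adjusted p = 0.131), and its part in the *Nid2* difference was not tested.

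*Nid1* (ENSMUSG00000005397.8, chromosome 13, 13437551 to 13512269, plus strand) encodes nidogen-1. It was at 401.4, 406.5 and 401.5 CPM in the control and 394.7, 382.7 and 384.2 CPM in the *Phf2* KO libraries. The groups did not overlap, yet the log2 fold change was only -0.06 (SE 0.038, 95% interval -0.14 to 0.02, adjusted p = 0.457), so the fitted changes of the nidogens had opposite signs with intervals that did not meet. *Nid1* shares 143 bases (2.06%) of its exons with an antisense gene, *Gm48682*. In TPM, *Nid2* was 2.68, 2.52 and 2.79 times the level of *Nid1* in the control and 3.42, 3.06 and 3.33 times in the *Phf2* KO libraries. From CPM per kb the ratio was 2.62 ± 0.129 in the control and 3.32 ± 0.044 in *Phf2* KO (SD, n = 3). As a share of both nidogens, *Nid2* made up 72.7 ± 1.00% and 76.6 ± 1.06% of TPM. For the share and the ratio the groups did not overlap on either scale. The two-sided exact permutation test gave p = 0.1, the smallest p that 3 libraries against 3 allow. The share is fixed by the ratio, so they are not separate results, and both take in the *Nid2* rise given above. Only the share was planned.

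**Figure D2:**
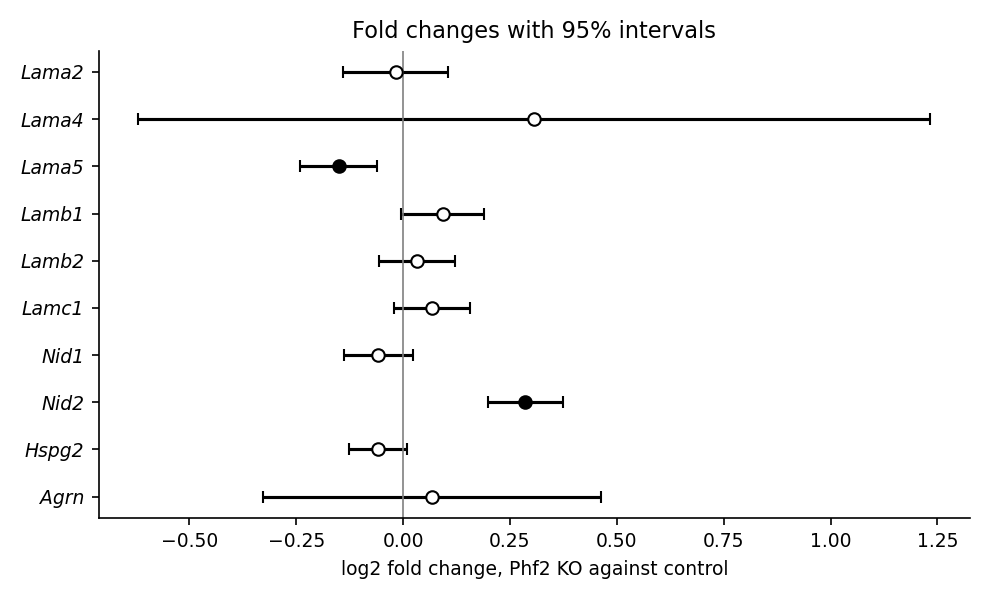
Log2 fold change of each of the 10 genes in *Phf2* KO against control (x axis), with 95% intervals from the quasi-likelihood fit and filled points for an adjusted p under 0.05. *Nid2* (0.29) and *Lama5* (-0.15) are filled, and the widest intervals belong to *Lama4* (-0.62 to 1.23) and *Agrn* (-0.33 to 0.46).

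The proteoglycans *Hspg2* and *Agrn* did not pass the test. *Hspg2* (ENSMUSG00000028763.18, chromosome 4, 137468769 to 137570630, plus strand), which encodes perlecan, had the most counts of the 10 genes. It was at 2474, 2419 and 2453 CPM in the control and 2377, 2387 and 2292 CPM in the *Phf2* KO libraries. All 3 *Phf2* KO libraries lay below the control (log2 fold change -0.06, SE 0.032, 95% interval -0.13 to 0.01, adjusted p = 0.349). The ratio of *Nid2* to *Hspg2*, per length from TPM, was 1.05 ± 0.036 in the control and 1.29 ± 0.10 in *Phf2* KO cells, without overlap (exact permutation p = 0.1, the smallest possible). This ratio was not planned and takes in the *Nid2* rise given above. *Agrn* (ENSMUSG00000041936.18, chromosome 4, 156165290 to 156197488, minus strand) encodes agrin. It varied most within the control group among the genes above 1 CPM, at 196.6, 174.5 and 138.7 CPM, and was at 197.1, 173.7 and 163.5 CPM in the *Phf2* KO libraries, which overlapped. Replicates with the same number lay close to each other for 1 and 2. Its interval of -0.33 to 0.46 (log2 fold change 0.07, adjusted p = 0.879) is wider than that of any other gene but *Lama4*, with a coefficient of variation of 17.2% in the control.

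The makeup of laminin chains was compared within each library, per length and with the other chains of each class included. *Lama5* made up 95.8 ± 0.833% of alpha chain TPM in the control and 96.2 ± 0.350% in *Phf2* KO, and 75.3 ± 1.12% and 73.5 ± 1.86% from CPM per kb, with overlapping groups on both scales. The scales differed in *Lama2*, which took 3.65 ± 0.605% and 3.38 ± 0.348% of alpha chain TPM but 24.3 ± 0.928% and 25.98 ± 2.02% from CPM per kb. *Lamb1* held 52.3 ± 1.25% and 54.1 ± 0.903% of beta chain TPM, again with overlap. *Lamc1* held 96.3 ± 0.054% and 98.0 ± 0.304% of gamma chain TPM without overlap (exact permutation p = 0.1, the smallest possible). This gamma chain share was not planned, and *Lamc1* itself did not pass the test. Summed alpha chains per summed gamma chains, a ratio chosen after the data were seen, were 0.827, 0.789 and 0.812 in the control and 0.717, 0.726 and 0.667 in the *Phf2* KO libraries in TPM, and 1.03 ± 0.015 and 0.923 ± 0.026 from CPM per kb. These groups did not overlap on either scale (exact permutation p = 0.1, the smallest possible). *Lama5* held most of the alpha chain level and *Lamc1* most of the gamma chain level on both scales. The ratio thus takes in the *Lama5* fall given above and is not a separate result. The ratio of beta to gamma chains overlapped, at 2.20 ± 0.019 and 2.19 ± 0.147 in TPM (exact permutation p = 0.8).

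**Figure D3:**
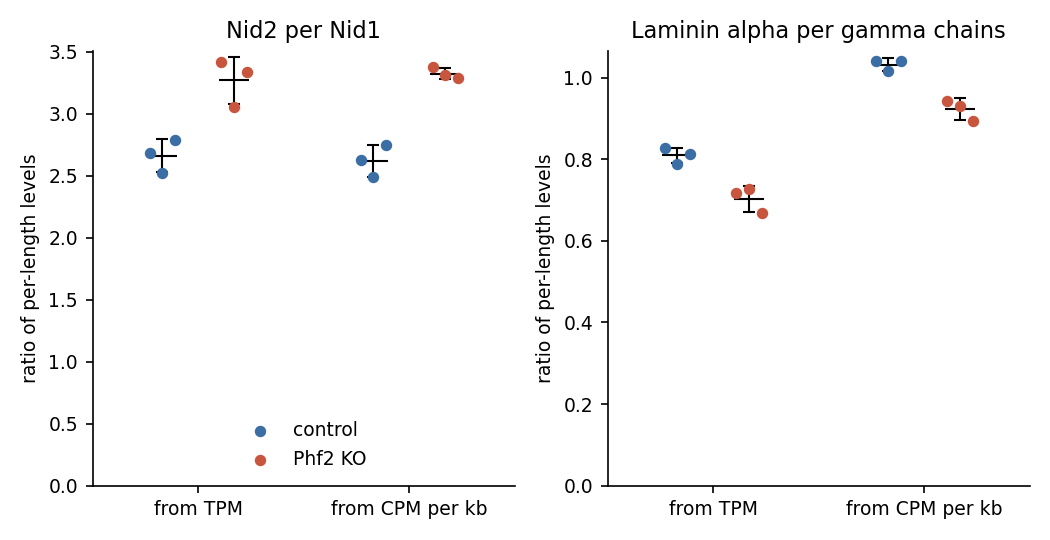
Ratio of *Nid2* to *Nid1* (left) and of summed laminin alpha to summed gamma chains (right), each from TPM and from CPM per kilobase, with 1 point per library (blue for control, red for *Phf2* KO) and bars at the mean and SD of 3 libraries. In TPM the *Nid2* ratio moved from 2.66 to 3.27 and the alpha ratio from 0.809 to 0.703, with no overlap of the groups. The left ratio takes in the rise of *Nid2* and the right ratio the fall of *Lama5*, and neither ratio was planned.

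The genes that bind, modify or assemble with these 10 were taken as 7 lists of 72 genes by known function. Of the 68 tested, 2 were higher and 13 lower past the threshold, against the 3.22% and 3.26% of all genes tested. The other laminin chains were at low levels. *Lamc3*, a gamma chain, had estimated counts of 43, 47 and 64 against 21, 15 and 27 (0.295 ± 0.065 and 0.112 ± 0.023 TPM, adjusted p = 0.0734), and passed with exactTest (0.0227). *Lamb3* was at 0.905 ± 0.999 and 0.792 ± 0.876 TPM, with control 1 (2.06) and *Phf2* KO 1 (1.80) far above the rest. In CPM, *Lamb3* was at 3.86 ± 0.46 and 3.75 ± 0.53 (-0.04, adjusted p = 0.940). Its spread thus depends on the scale, and the cause was not tested. *Lama1* and *Lama3* had at most 27 counts in any library, or 0.045 and 0.035 TPM in the control and 0.024 and 0.042 TPM in *Phf2* KO.

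The collagens of the basement membrane, which form the network that nidogens bind, gave 1 call among 6 tested of 8. *Col18a1*, the collagen that holds endostatin, was at 114.1 ± 3.45 and 97.4 ± 3.03 CPM (-0.23, adjusted p = 0.00773), and this call was lost without *Phf2* KO 2 (adjusted p = 0.0551) and with the GC correction (0.0619). *Col4a1*, the most abundant of them in TPM, was at 609.3 ± 38.6 and 566.5 ± 20.6 CPM with overlapping groups (-0.11, adjusted p = 0.250). *Col15a1* was at 0 in every library.

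Other basement membrane components passed the test in 5 of 12 tested of 13, all lower, and the list's median log2 fold change was -0.26. *Npnt* (nephronectin, an integrin ligand) was at 157.1 ± 12.4 and 113.1 ± 2.76 CPM (-0.47, adjusted p = 0.00018). The fibulins *Fbln1* and *Fbln2*, which bind laminin and nidogen, each had a log2 fold change of -0.26 (adjusted p = 0.0334 and 0.00688). *Fbln1* passed only without control 3 or *Phf2* KO 1 (0.0209 and 0.0329) when 1 library was left out, and reached at most 0.144 without another, and missed the threshold with the GC correction (0.0691). The call on *Fbln2* was lost without control 2 (0.0623). *Fras1*, of the Fraser complex that anchors epithelia, fell by 1.15 on the log2 scale from a low level (4.19 ± 0.213 and 1.89 ± 0.379 CPM, adjusted p = 0.00419). *Frem2*, of the same complex, had estimated counts of 19, 22 and 13 against 0, 0 and 4 (adjusted p = 0.0497), and lost its call without any 1 library (adjusted p 0.0512 to 0.215) and with the replicate block (0.0824). *Sparc*, a collagen-binding glycoprotein and the most abundant of the list, had a log2 fold change of 0.0042 (5302 ± 157 and 5317 ± 216 CPM, adjusted p = 0.973).

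The laminin receptors passed in 4 of 11, all lower, with a list median of -0.05. *Itga7*, the laminin integrin alpha chain of muscle, was at 712.5, 709.5 and 651.4 CPM in the control and 506.1, 493.9 and 490.6 CPM in *Phf2* KO (-0.48, SE 0.043, adjusted p = 3.18e-05). *Dag1*, which encodes alpha- and beta-dystroglycan, was at 587.4, 615.2 and 601.1 against 453.1, 480.8 and 476.8 CPM (-0.35, SE 0.040, adjusted p = 0.00014). For both genes the *Phf2* KO libraries lay well below the control, and both calls held in all 22 alternatives. *Itga6* (74.7 ± 4.87 and 63.7 ± 2.46 CPM, -0.23, adjusted p = 0.0286) and *Bcam*, a receptor for the laminin alpha chain of *Lama5* (9.28 ± 2.13 and 5.82 ± 0.918 CPM, -0.67, adjusted p = 0.0445), passed without control 3 (adjusted p = 0.0125 and 0.00707) and missed the threshold without any other library (at most 0.164 and 0.207). *Bcam* also missed the threshold with limma-voom (0.0715) and the GC correction (0.0575). *Itgb1*, the beta chain that *Itga6* and *Itga7* pair with and the most abundant of the list, had a log2 fold change of 0.06 (1109 ± 19.4 and 1159 ± 22.1 CPM, adjusted p = 0.339).

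The agrin receptor complex of 4 genes gave 2 calls, both lower. *Musk*, the kinase of the complex, was at 42.4 ± 1.19 and 32.2 ± 0.345 CPM (-0.40, adjusted p = 0.00107). *Dok7*, its cytoplasmic activator, was at 24.8 ± 1.68 and 19.3 ± 0.289 CPM (-0.36, adjusted p = 0.0141), but passed only without control 3 or *Phf2* KO 1 (0.00950 and 0.0362) when 1 library was left out, reached 0.0827 without control 2, and missed the threshold with the GC correction and block together (0.0512). *Rapsn*, the most abundant in TPM, which anchors acetylcholine receptors, was at 83.3 ± 5.05 and 75.4 ± 0.561 CPM (-0.14, adjusted p = 0.129). *Lrp4*, the receptor that agrin binds, was at 358.7 ± 8.62 and 341.5 ± 9.92 CPM (-0.07, adjusted p = 0.391). Several of these genes are muscle genes, and the myotube markers were lower in the same libraries (8697 to 9580 against 10960 to 12980 CPM); their part in the receptor differences was not tested.

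None of the 13 genes that build the laminin-binding glycan of alpha-dystroglycan passed the quasi-likelihood test of edgeR, at an unadjusted p under 0.05 there were also 0, and none passed with exactTest, DESeq2, limma-voom or limma. *Pomgnt1*, the most abundant, was at 87.8 ± 3.24 and 91.6 ± 1.504 CPM (log2 fold change 0.06, adjusted p = 0.525). The list's median was -0.00082. Of the genes that build or trim heparan sulfate, the chain carried by perlecan and agrin, 2 of 17 tested of 18 passed, both higher. *Sulf2*, a sulfatase that removes sulfate from the finished chain outside the cell and the most abundant of the list, was at 328.9, 327.6 and 312.3 CPM in the control and 408.6, 398.3 and 390.1 CPM in *Phf2* KO, without overlap (0.31, SE 0.041, adjusted p = 0.00057). *Glce*, the epimerase of the chain, was at 47.2 ± 3.25 and 57.3 ± 3.78 CPM (0.28, adjusted p = 0.0219), and passed only without control 3 or *Phf2* KO 2 (0.0283 and 0.0464) when 1 library was left out, with at most 0.0944 without another.

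**Figure D4:**
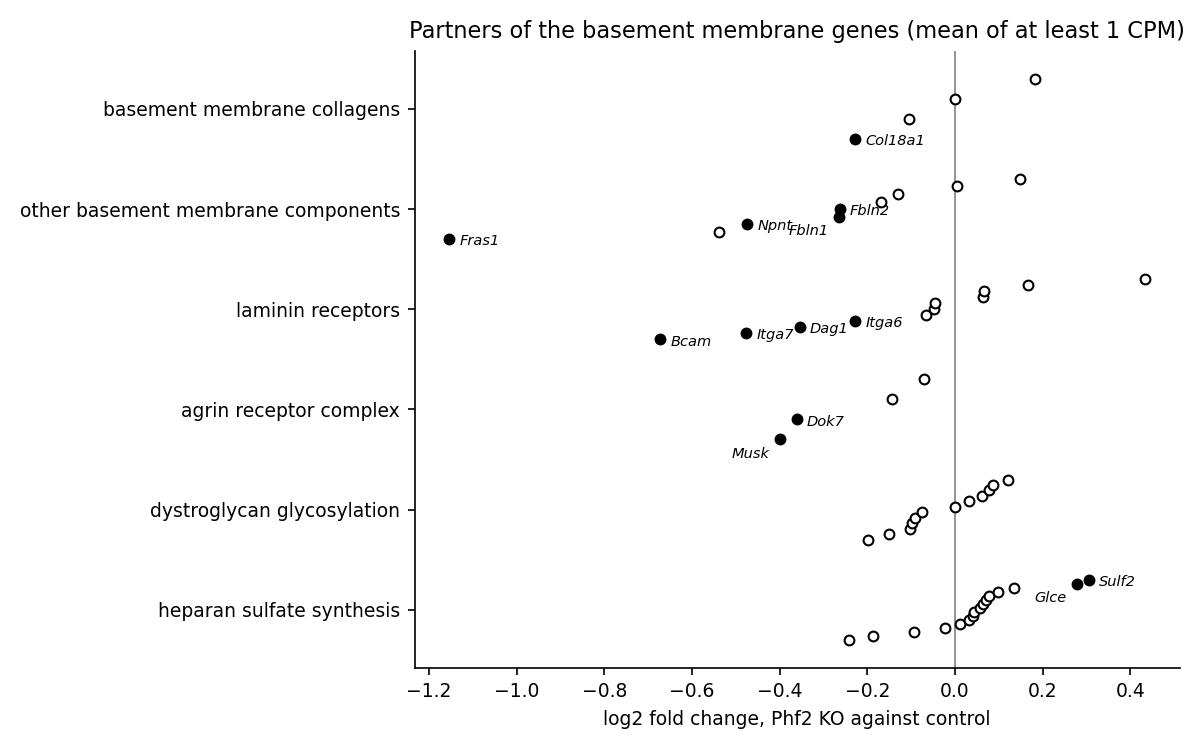
Log2 fold change in *Phf2* KO against control (x axis) of the genes of 6 lists that bind, modify or assemble with the basement membrane genes, 1 point per gene with a mean of at least 1 CPM (7 tested genes below that are not drawn), filled and named where the adjusted p is under 0.05. The filled points of receptors and other components lie left of 0, and *Sulf2* (0.31) and *Glce* (0.28) lie right of it.

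**Figure D5:**
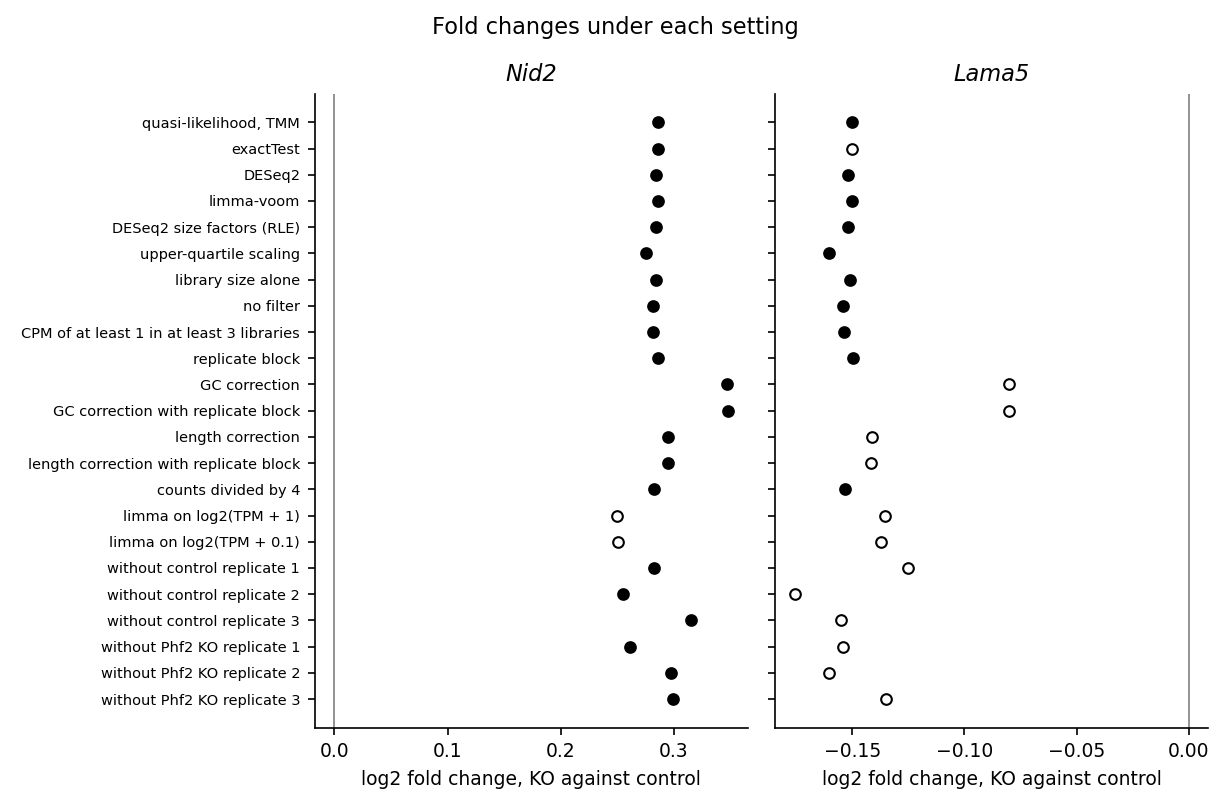
Log2 fold change of *Nid2* (left) and *Lama5* (right) under the quasi-likelihood fit and 22 alternatives (1 row each), filled where the adjusted p is under 0.05. *Nid2* stayed between 0.25 and 0.35 and was open only in the TPM fits, while *Lama5* stayed between -0.18 and -0.08 and was open in 13 of the 22.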

How the data were processed

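Poly(A) RNA of 3 control and 3 *Phf2* KO wells was sequenced with a directional kit. The authors aligned reads to mm10 with HISAT2 (named in the submitters' processing notes, version not given in the sources used here) and counted genes with StringTie. The deposited matrix holds these as estimated counts, whole numbers not scaled by library size. They are not tallies of reads: 1 count stood for a median of 75.0 covered bases, less than a read, so counting intervals were not drawn. The deposited single-library tables hold TPM, a signal scaled within each library by the authors, of which the rows of reference genes were used, and coverage, a depth per base that the authors deposited and that served only to work out the count unit. Coordinates are from GENCODE M21 (GRCm38, the assembly of mm10), in which 55141 of 55401 identifiers matched.

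The differential test used edgeR 4.0.16 under R 4.3.3: filterByExpr (minimum count 10), TMM scaling, and the robust quasi-likelihood test, with Benjamini-Hochberg adjustment over 17310 genes and a threshold of 0.05. All adjusted p-values are from this fit unless another test is named. The common biological coefficient of variation was 0.135, and fold changes used a prior count of 0.125. Standard errors were derived from the fold change and its F statistic. Shares and ratios were compared by two-sided exact permutation tests over libraries.

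The genes named were all 10 members, *Phf2*, every list gene past the threshold, the most abundant gene of each list by TPM and the other laminin chains. Of the genes this rule names, 1 is not reported here. *Lrp4*, *Col15a1* and *Rtraf* and the marker genes were named after their values were seen. The members, lists and tests were chosen with earlier results of these data known. Alternatives were exactTest, DESeq2 1.42.0, limma-voom (limma 3.58.1), other scalings and filters, GC and length corrections (loess span 0.5), a replicate block, counts divided by 4, limma on TPM, and leaving out each library.

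The study describes no pairing of replicates, but libraries with the same number resembled each other across the groups. Taken over 10923 genes, same-numbered libraries deviated from their group means together (r = 0.183, 0.345 and 0.234). Differently numbered ones had r from -0.29 to 0.0899. Deviations cancel out within a group, so these r values depend on each other and do not establish a pairing. Genes are not independent, so no p is given.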

Additional observations from a re-analysis of the deposited data

How the results depend on the processing

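All 10 genes were refitted under 16 alternatives on 6 libraries (15 for *Lama4*, which the filter of at least 1 CPM removed) and 6 that leave out 1 library. The 8 genes that did not pass the threshold passed it in none. *Nid2* kept its call except with limma on log2(TPM + 1) and log2(TPM + 0.1) (0.25 in each), which left 0 of the 10 genes higher and 0 lower. *Lama5* lost its call with exactTest (-0.15), the GC correction without and with the replicate block (-0.080 in each), the length correction without and with the block (-0.14 in each), both TPM fits (-0.14 in each) and each library left out (-0.18 to -0.13), so the count lower was then 0. With the replicate block alone the calls on *Nid2* (adjusted p = 0.00089) and *Lama5* (0.0336) held, and of the partner genes only *Frem2* lost its call.

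Genes past the threshold numbered 70 higher and 88 lower with log2(TPM + 1), 78 and 100 with log2(TPM + 0.1), and 206 to 507 and 262 to 532 with 1 library left out, of which leaving out control 2 gave the fewest. Partner genes higher numbered 5 with DESeq2 and the GC correction, 4 with that correction and block, 1 in each TPM fit and 1 to 3 with 1 library left out. Partner genes lower numbered 3 in each TPM fit and 6 to 12 with 1 library left out. By list, other laminin chains gave 2 calls with exactTest, 0 in each TPM fit and 0 to 1 without a library. Collagens gave 2 with DESeq2 and with GC correction and block, 0 in each TPM fit and 0 to 1 without a library. Other components gave 1 in each TPM fit and 2 to 4 without a library, receptors 2 and 2 to 5, the agrin complex 0 and 1 to 2 (1 with GC correction and block), and heparan sulfate genes 1 and 1 to 2 (1 with GC correction and block). The share of *Lama2* in alpha chains differed by -0.27 percentage points in TPM and 1.68 from CPM per kb, and that of *Lama5* by 0.31 and -1.78, so their sign depends on the scale. Except where the alternative itself uses fewer libraries, the cause was not tested.

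The counts limit *Lama4*, *Lama1*, *Lama3*, *Lamc3* and *Frem2*, each under 100 in every library. The last 4 also had no value under that filter and no adjusted p from DESeq2, and all of these but *Lamc3* none with counts divided by 4. With 3 wells per group, a permutation test cannot go below p = 0.1.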
